A study of Mus musculus with 6 samples.

Results

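Sox proteins are transcription factors that bind DNA through a high-mobility-group domain, and 8 of them, chosen by gene symbol, are described here in the embryonic mouse intestine: *Sox2*, *Sox21*, *Sox4*, *Sox11*, *Sox9*, *Sox10*, *Sox17* and *Sox18*. Every probe of the array that the platform annotation names with 1 of these symbols was taken. A probe was found for 7 of the 8 genes, and each of the 7 has a single probe among the 33012 on the array. *Sox10*, which marks enteric neural crest cells and glia, had no probe so named and is not analysed here. The rule uses symbols only, but the genes were proposed with earlier results of these data known.

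RNA came from the distal part of the midgut of mouse embryos at E13.5, in 3 samples from *Id2*-/- embryos (knockout) and 3 samples from *Id2*+/+ embryos (wild type). Each sample was hybridised to 1 single-color Applied Biosystems mouse genome survey array after 1 round of RNA amplification. The labels call the embryos littermates. The mutant line was kept on an inbred and on a mixed genetic background, and which of them gave the arrays is not stated. Single and pooled embryos are not told apart in the sources used here, and p-values therefore cover the variation among these samples alone. *Id2* encodes an inhibitor of basic helix-loop-helix transcription factors, and in the knockout it is missing from every cell of the embryo. *Id2* itself is not analysed here.

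The Sox family falls into groups of related proteins. *Sox2* (group B1) is known for marking the epithelium of the foregut, including the esophagus and stomach, and is normally low in intestinal epithelium. It is also found in neural progenitors and enteric glia. *Sox21* (group B2) is a related factor of foregut and neural tissue. *Sox4* and *Sox11* (group C) are active in progenitors and in young neurons and mesenchyme. *Sox9* and *Sox10* (group E) act in intestinal progenitors, in cartilage and in the neural crest. *Sox17* and *Sox18* (group F) act in endothelium, and *Sox17* also in the early endoderm. Basic helix-loop-helix proteins, the class that Id proteins bind, recognise the E-box, CANNTG.

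The RefSeq promoter table (assembly GRCm38.p6) held the region upstream of the annotated start for 4 of the 8 genes. The 250 bases before the start are shown for all 4, whatever their expression. *Sox2* and *Sox21* had the largest positive differences of means among the 7, and the profiles of *Sox4* and *Sox11* over the arrays lay closest to each other. Each runs 5′ to 3′ on the strand of its gene, and capitals mark E-boxes. *Sox2* lies at chr3:34649745-34649994 on the plus strand, *Sox21* at chr14:118237031-118237280, *Sox4* at chr13:28953700-28953949 and *Sox11* at chr12:27342719-27342968, all 3 on the minus strand.
Sox2: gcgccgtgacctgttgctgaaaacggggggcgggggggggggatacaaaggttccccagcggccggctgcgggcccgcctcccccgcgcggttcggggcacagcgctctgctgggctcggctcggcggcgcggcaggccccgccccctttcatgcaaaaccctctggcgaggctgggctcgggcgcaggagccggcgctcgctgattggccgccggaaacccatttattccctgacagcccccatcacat
Sox21: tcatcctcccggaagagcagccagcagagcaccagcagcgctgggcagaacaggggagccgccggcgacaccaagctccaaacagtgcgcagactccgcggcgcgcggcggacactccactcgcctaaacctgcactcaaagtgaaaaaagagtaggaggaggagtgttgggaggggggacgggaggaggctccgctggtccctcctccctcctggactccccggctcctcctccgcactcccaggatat
Sox4: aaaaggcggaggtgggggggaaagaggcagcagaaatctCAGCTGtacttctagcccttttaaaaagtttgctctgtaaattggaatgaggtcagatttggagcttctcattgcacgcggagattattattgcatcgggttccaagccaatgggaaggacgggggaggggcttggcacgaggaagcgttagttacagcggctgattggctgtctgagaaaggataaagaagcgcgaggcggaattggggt
Sox11: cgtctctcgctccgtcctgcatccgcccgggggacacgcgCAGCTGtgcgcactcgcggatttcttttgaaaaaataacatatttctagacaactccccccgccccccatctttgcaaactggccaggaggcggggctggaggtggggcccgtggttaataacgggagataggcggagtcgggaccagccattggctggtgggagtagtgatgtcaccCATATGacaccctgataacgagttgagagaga

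An E-box (CANNTG, a palindrome and so the same on both strands) was present in 66.2% of the 32851 windows of the same length in the table. The windows of *Sox2* and *Sox21* held 0 of them. The window of *Sox4* held 1, and that of *Sox11* held 2. In both group C windows the E-box nearest the upstream end was CAGCTG, which began 211 bases before the start in *Sox4* and 210 bases before it in *Sox11*. CAGCTG was present in 13.0% of all windows. The second E-box of *Sox11*, CATATG, began 32 bases before the start. AACAAT on either strand, a form of the core sequence that Sox proteins recognise, was present in 9.42% of all windows and in 0 of these 4. Other forms of that core were not searched. The CCAAT box, CCAAT on either strand, was found 4 times in the *Sox4* window, 1 time each in the *Sox2* and *Sox11* windows and 0 times in the *Sox21* window, with 33.8% of all windows holding at least 1. The share of G and C was 72% in the *Sox2* window, 65.2% in *Sox21*, 50.8% in *Sox4* and 58% in *Sox11*, against a median of 52.4% over all windows. These matches describe the letters and do not show binding.

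A probe was taken as above background on an array when its signal-to-noise value was at least 3, and 13891 to 16543 probes reached that on the *Id2*-/- arrays and 14501 to 15833 on the *Id2*+/+ arrays. Values are given as log2 of the authors' signal divided by the median of its array, and each probe has its own scale, so levels are compared between arrays and never between genes. Both arrays with the number 1 differed from the rest. They correlated with each other at r = 0.984 across the tested probes and with the other 4 arrays at 0.909 to 0.931, while those 4 correlated among themselves at 0.979 to 0.988. The same number in both genotypes went with similar deviations, so differences are also given by array number. For numbers 2 and 3 the split of number 1 alone can make the deviations alike, so a match between those arrays is not shown. The median probe differed between the *Id2*-/- and the *Id2*+/+ array by 0.35 for number 1, by -0.038 for number 2 and by -0.19 for number 3.

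Of the 7 genes with a probe, *Sox2*, *Sox4*, *Sox11*, *Sox17* and *Sox18* were above background on all 6 arrays. *Sox21* was so on 2 *Id2*-/- arrays and 0 *Id2*+/+ arrays, and *Sox9* on 1 *Id2*-/- array and 2 *Id2*+/+ arrays. The test took the probes with no bad flag that reached this limit in all 3 samples of 1 or both genotypes, which left 12741 probes and 5 of the 7 Sox genes. None of the 5 passed the test. Limma called 0 of 12741 probes at an adjusted p under 0.05 (0%), and 234 of them (1.84%) had an unadjusted p under 0.05. With the array number as a replicate block it called 278 probes (2.18%), again with 0 of the 5 Sox genes among them. The smallest adjusted p of a Sox gene was then 0.592, for *Sox2*. In the fit with the block alone, limma gave every tested probe the same standard error, 0.275. Intervals, p-values and calls of that fit therefore do not measure the spread of a single gene. With the block and quantile normalization together, 0 probes (0%) were called.

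**Figure D1:**
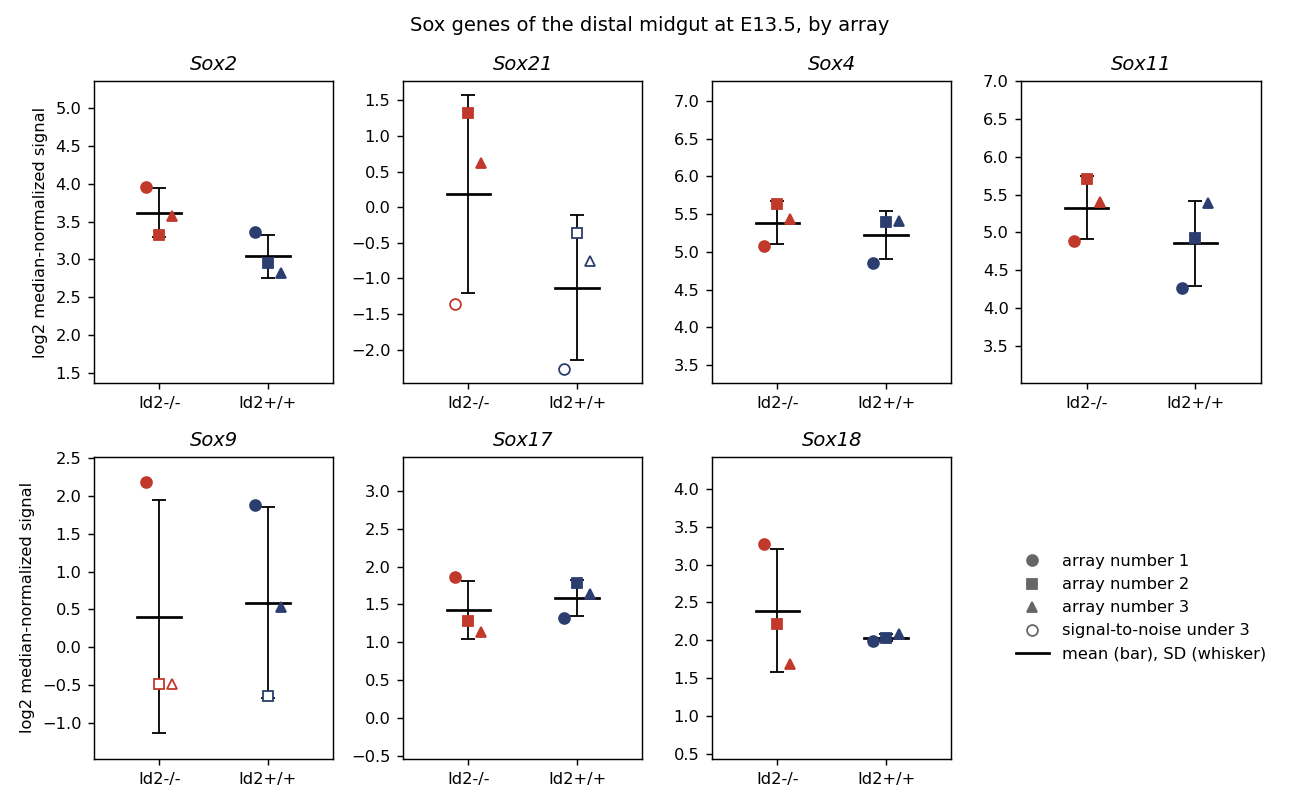
Log2 median-normalized signal of the 7 Sox genes with a probe (y axis, each panel with its own range) on the 3 *Id2*-/- arrays, at left, and the 3 *Id2*+/+ arrays, at right; symbols give the array number, open symbols a signal-to-noise value under 3, and bars and whiskers the mean and SD. The 2 genotypes overlap in every panel, and *Sox9* is high on both arrays numbered 1.

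*Sox2* had the largest difference of means among the 5 tested genes. Its log2 signal was 3.96, 3.32 and 3.57 on the *Id2*-/- arrays numbered 1, 2 and 3, against 3.36, 2.95 and 2.82 on the *Id2*+/+ arrays. Only the lowest *Id2*-/- value, that of number 2, lay under the highest *Id2*+/+ value, that of number 1, so the groups overlapped by a narrow margin. The means were 3.62 ± 0.32 in *Id2*-/- and 3.04 ± 0.28 in *Id2*+/+ midgut (SD, n = 3 each). The difference was 0.58 on the log2 scale, or 1.49-fold, with a standard error of 0.28 and a 95% interval of -0.081 to 1.24. It did not pass the test (limma, unadjusted p of 0.0769, adjusted p of 1.0). Among the 12741 tested probes, 3.09% had a larger positive difference. An exact permutation test of the 6 values gave a two-sided p of 0.2, where 0.1 is the smallest that 3 against 3 can give.

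Compared by array number, *Sox2* was higher in the *Id2*-/- member of all 3 pairs, by 0.61, 0.37 and 0.76. Relative to the median probe of each pair the differences were 0.26, 0.41 and 0.95. With the replicate block the 95% interval was 0.040 to 1.12 with an unadjusted p of 0.0352 and an adjusted p of 0.592 (limma). Both rest on a standard error that all probes share in the block fit, not on the spread of *Sox2* itself. An unadjusted p under 0.05 was reached in that fit by 6.9% of all probes (3.67% higher in *Id2*-/-) and by 1 of the 5 Sox genes, *Sox2*. The signal-to-noise values of *Sox2* were 46.7, 10.3 and 22.3 on the *Id2*-/- arrays and 20.7, 12.2 and 15.2 on the *Id2*+/+ arrays, all well over 3.

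*Sox21* had the largest difference of means of all 7 genes, but near background. Its log2 signal was -1.36, 1.32 and 0.61 on the *Id2*-/- arrays and -2.28, -0.36 and -0.75 on the *Id2*+/+ arrays. The signal-to-noise values were 1.78, 5.23 and 3.23 on the *Id2*-/- arrays, against -0.77, 1.71 and -0.02 on the *Id2*+/+ arrays. The *Id2*-/- array numbered 1 was therefore below background like the 3 *Id2*+/+ arrays, and its signal was under that of 2 of them. The means were 0.19 ± 1.39 and -1.13 ± 1.02 (SD, n = 3 each), a difference of 1.32. As a ratio *Sox21* was 2.49-fold higher in *Id2*-/- midgut. In this ratio each *Id2*+/+ array enters with the higher of 2 signals, that of *Sox21* or the dimmest that still counted as above background there. That of *Sox21* was the higher on every *Id2*+/+ array, so the value equals the plain ratio of means. It is not a lower limit, also because the *Id2*-/- array numbered 1 entered it with a signal below background.

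Because *Sox21* was not above background on all arrays of either genotype, it did not enter the fit. By array number it was higher in *Id2*-/- by 0.91, 1.67 and 1.37. Within each genotype the array numbered 1 was the lowest, at -2.33 relative to the mean of the other two in *Id2*-/- and at -1.72 in *Id2*+/+. An exact permutation test over the 6 arrays gave a two-sided p of 0.3.

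**Figure D2:**
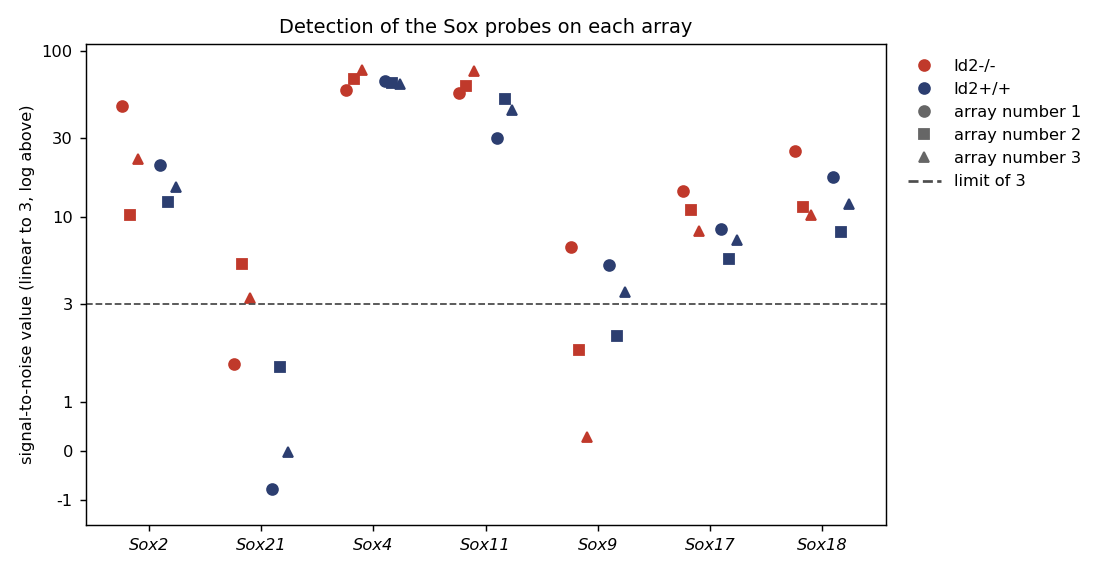
Signal-to-noise value (y axis, linear up to 3 and logarithmic above) of the 7 Sox probes on each array, with *Id2*-/- in red at the left and *Id2*+/+ in blue at the right of each gene, and symbols for the array number. The dashed line is the limit of 3, which *Sox21* passes on 2 *Id2*-/- arrays and *Sox9* on 1 *Id2*-/- and 2 *Id2*+/+ arrays, while the other 5 genes lie above it throughout.

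The epithelial genes around *Sox2* were read from lists. Of 17 genes of foregut and stomach epithelium, 14 had a probe and 4 were tested. *Foxa2*, *Irx3* and *Irx5* were put in the list with earlier results of these data known and were tested only through the *Id2*-/- arrays, on which they are high, so they are given as a description. None of the 4 was called without the block, and these 3 were called with it (1.06% of all probes were called higher) and not with the block and quantile normalization. The fourth, the keratin gene *Krt14*, differed by 0.14 and was not called. *Foxa2* encodes a forkhead factor of endoderm, and *Irx3* and *Irx5* are homeobox genes of the Iroquois family. *Foxa2* passed the background limit on 3 *Id2*-/- arrays and 0 *Id2*+/+ arrays. By the ratio used for *Sox21* it was 4.26-fold higher in *Id2*-/-, which again equals the plain ratio and is not a strict lower limit. *Irx5* was detected in the same way and was 8.25-fold higher by that ratio. Its own signal entered on the *Id2*+/+ arrays numbered 2 and 3, so this is not a strict lower limit either. *Irx3*, above background on 3 *Id2*-/- arrays and 1 *Id2*+/+ array, differed by 1.73 on the log2 scale.

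The other genes of the list had mean differences of both signs. *Trp63*, the factor of basal squamous cells, *Cldn18*, a stomach claudin, and *Atp4a* and *Atp4b*, the acid pump of parietal cells, were above background on 0 of 6 arrays. *Tff2*, a trefoil factor of the stomach, was above background on 1 *Id2*-/- array and 2 *Id2*+/+ arrays, and its signal was lower in *Id2*-/- by array number, by -1.28, -0.97 and -2.14. *Gkn1* and *Gkn2*, secreted proteins of the stomach lining, were above background on 1 *Id2*-/- array and 2 *Id2*+/+ arrays each, and the mucin gene *Muc1* on 0 *Id2*-/- arrays and 1 *Id2*+/+ array, with mean differences of -0.43, -0.53 and -0.56. *Krt5* and *Krt15*, keratin genes of squamous epithelium, had mean differences of 0.64 and 0.25, near background and not tested. *Krt5* was above background on 1 *Id2*-/- array and 0 *Id2*+/+ arrays, and *Krt15* on 2 *Id2*-/- arrays and 1 *Id2*+/+ array. The study lists *Krt15* as higher in the knockout on these arrays, by more than the probe read here shows. The summed level of all 14 foregut genes was 18.8 to 22.8 on the *Id2*-/- arrays and 13.7 to 16.6 on the *Id2*+/+ arrays. Without *Foxa2*, *Irx3* and *Irx5* the sum of the remaining 11 was 10.2 to 11.4 on the *Id2*-/- arrays and 11.1 to 14.6 on the *Id2*+/+ arrays, with 5 of the 11 higher and 6 lower in the mean in *Id2*-/-. *Tff2*, *Gkn1*, *Gkn2*, *Muc1*, *Krt5* and *Krt15* were named after their values were seen.

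Of 15 pan-epithelial genes, such as *Krt19* and the protease inhibitor gene *Spint2*, 14 had a probe and 13 were tested. None was called with or without the block. All 13 had a negative mean difference, with a median of -0.28, while the median by array number was 0.43, -0.48 and -0.82. Their summed level was 809 to 925 on the *Id2*-/- arrays and 577 to 1553 on the *Id2*+/+ arrays, the lowest of all being the *Id2*+/+ array numbered 1. Intestinal epithelial genes also went in that order by number (0.46, -0.78 and -0.87), with 5 of 7 tested genes lower in the mean and a median difference of -0.51; *Anpep*, a brush border peptidase, was the only one of the 7 called with the block, and it was higher in *Id2*-/- (1.06% of all probes were called higher), and the call was lost once quantile normalization was added. *Sox2* and the pan-epithelial median lay on opposite sides of their means on every array but *Id2*-/- array 2: on *Id2*-/- array 1 *Sox2* stood 0.63 above its own mean and the pan-epithelial median at -0.15, and on *Id2*+/+ array 3 *Sox2* stood at -0.51 and the list at 0.61. On *Id2*+/+ array 1 *Sox2* was close to its mean, at 0.027. The intestinal median lay on the same side as *Sox2* on *Id2*-/- arrays 2 and 3. In bulk tissue a different number of cells of a type and a different amount of RNA per cell cannot be told apart, and the part of epithelial content in the *Sox2* values was not tested.

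*Sox4* and *Sox11* had strong probes in both genotypes. *Sox4* read 5.08, 5.64 and 5.44 on the *Id2*-/- arrays, against 4.85, 5.40 and 5.41 on the *Id2*+/+ arrays. The values of the 2 genotypes interleaved, and the array numbered 1 was the lowest of each. The means were 5.39 ± 0.28 and 5.22 ± 0.32 (SD, n = 3 each), a difference of 0.17 with a standard error of 0.28 and a 95% interval of -0.49 to 0.82 (limma, adjusted p of 1.0; exact permutation test, two-sided p of 0.5). That interval covers folds between 0.711 and 1.77. Leaving out *Id2*+/+ array 1 gave a difference of -0.018.

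*Sox11* read 4.88, 5.70 and 5.40 in *Id2*-/- midgut, against 4.26, 4.92 and 5.38 in *Id2*+/+ midgut. Number 1 was again the lowest array of each genotype, and number 3 gave almost the same value in both. The means were 5.33 ± 0.42 and 4.86 ± 0.56 (SD, n = 3 each), with a difference of 0.47, or 1.39-fold, a standard error of 0.37 and a 95% interval of -0.39 to 1.34 (limma, adjusted p of 1.0; exact permutation test, two-sided p of 0.4). By number the differences were 0.62, 0.78 and 0.019. With the replicate block the unadjusted p was 0.0856, and with the block and quantile normalization 0.0465, with adjusted p of 0.974 and 0.672 in limma. Leaving out *Id2*+/+ array 1 gave a difference of 0.18, and leaving out *Id2*+/+ array 3 gave 0.74.

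Across the 6 arrays the 2 group C genes had the most similar profiles of any 2 of the 7 genes. The root mean square difference between their log2 values, each centred on its own mean, was 0.24, against 0.38 for *Sox17* and *Sox18* and 2.26 for *Sox21* and *Sox9*, the pair farthest apart. Over 7317 named genes with a tested probe, the profiles nearest to *Sox11* were those of *Pmepa1* (0.13) and *Vegfc* (0.15), where the median gene lay at 0.51. *Pmepa1* encodes a membrane protein that restrains TGF-beta signaling, and *Vegfc* a growth factor of lymphatic vessels. These distances are descriptions over 6 arrays that share the split between number 1 and the rest.

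Of the enteric neuron list, 8 of 13 genes were tested and 1 was called, with the block alone, where 1.06% of all probes were called higher. That gene was *Nefm*, a neurofilament subunit, which was above background on 3 *Id2*-/- arrays and 1 *Id2*+/+ array and so was tested only through the *Id2*-/- arrays. Its measured means differed by 1.08, with an adjusted p of 0.00612 with the block, 1.0 without it and 0.548 with the block and quantile normalization (limma). The median difference of the list was 0.069. Of the epithelial progenitor list 4 of 11 genes were tested, with a median difference of 0.24 and 0 calls. Within it *Ccnd1*, the cyclin D1 gene, differed by 0.45 and *Lgr5*, the Wnt-responsive stem cell gene, by 0.87, and the *Lgr5* differences by number were 2.32, 0.17 and 0.13.

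**Figure D3:**
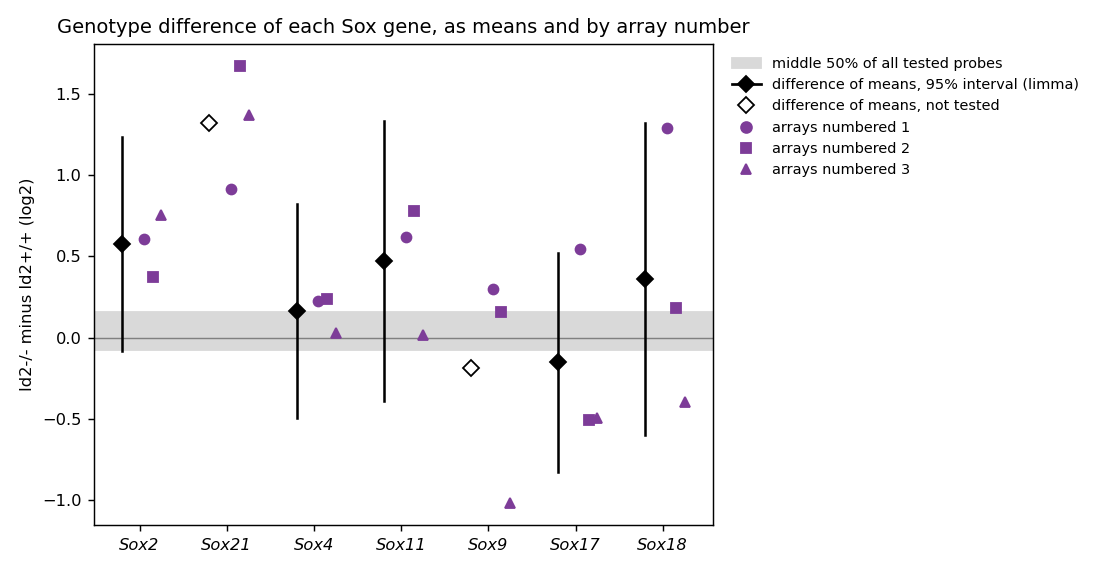
Difference between *Id2*-/- and *Id2*+/+ midgut on the log2 scale (y axis) for the 7 Sox genes: diamonds show the difference of means, filled with the limma 95% interval for the 5 tested genes and open for the other 2, and purple symbols show the difference for each array number. All 5 intervals include 0; *Sox2*, *Sox21*, *Sox4* and *Sox11* are above 0 for all 3 numbers, and the grey band holds the middle 50% of all tested probes.

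*Sox9*, a factor of intestinal progenitors and of cartilage, followed the array number more than the genotype. Its log2 signal was 2.18, -0.49 and -0.49 on the *Id2*-/- arrays and 1.88, -0.64 and 0.53 on the *Id2*+/+ arrays. The arrays numbered 1 were the highest of each genotype, by 2.67 over the mean of the other two in *Id2*-/- and by 1.94 in *Id2*+/+. The signal-to-noise values were 6.58, 2.05 and 0.28 in *Id2*-/-, against 5.14, 2.35 and 3.53 in *Id2*+/+. With means of 0.40 ± 1.54 and 0.59 ± 1.26 (SD, n = 3 each), the difference was -0.19, and by number it was 0.30, 0.16 and -1.02. *Sox9* was not tested in the fit, and the exact permutation test gave a two-sided p of 1.0. Leaving out the *Id2*-/- array numbered 1 gave -1.08 and leaving out the *Id2*+/+ array numbered 1 gave 0.46, so the sign rests on single arrays.

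The cartilage genes that *Sox9* is known to activate were mostly near background. Of 10 genes 2 were tested, *Col2a1* and *Col11a1*, both collagen genes, and *Col9a1*, *Col9a2*, *Comp* and *Matn1* were above background on 0 of 6 arrays. *Col2a1* differed by 0.43 and *Col11a1* by 0.26, with 0 calls. The 2 arrays numbered 1, where *Sox9* was highest, were the lowest for *Col2a1* in each genotype, at 1.36 against 2.94 and 3.64 on the *Id2*-/- arrays, and at 0.90 against 2.75 and 3.01 on the *Id2*+/+ arrays. *Hapln1*, a link protein of cartilage matrix, and *Col9a3*, another collagen gene, were highest on those arrays, as *Sox9* was. *Hapln1* read 1.70 against 0.38 and -0.42 on the *Id2*-/- arrays, and 1.5 against -0.84 and -0.39 on the *Id2*+/+ arrays. *Col9a3* read 0.81 against -0.64 and -0.21 on the *Id2*-/- arrays, and 0.83 against -1.49 and 0.12 on the *Id2*+/+ arrays. *Col11a2*, also a collagen gene, was lowest on number 1 in both genotypes. It read -1.78 against -1.29 and 0.73 in *Id2*-/- midgut, and -1.92 against -0.26 and 0.14 in *Id2*+/+ midgut. *Acan*, from the same list, had number 1 in between. It read -1.16 against -1.64 and 1.20 in *Id2*-/-, and -0.68 against -0.15 and -1.40 in *Id2*+/+. *Hapln1*, *Col9a3*, *Col11a2* and *Acan* were not tested, and all were named after their values were seen.

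With no *Sox10* probe, the enteric neural crest was read from 15 other genes, of which 8 had a probe and 5 were tested. Their median difference was 0.052 and 0 were called. *Ednrb*, the endothelin receptor of migrating crest cells, differed by 0.31 and *Zeb2*, a zinc finger factor of the crest, by -0.065. The summed level was 125 to 158 in *Id2*-/- and 104 to 153 in *Id2*+/+ midgut, overlapping over most of its range.

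*Sox17* read 1.87, 1.29 and 1.14 on the *Id2*-/- arrays and 1.32, 1.79 and 1.63 on the *Id2*+/+ arrays. The highest and the lowest of the 6 values were both in *Id2*-/- midgut. The means were 1.43 ± 0.38 and 1.58 ± 0.24 (SD, n = 3 each), a difference of -0.15 with a standard error of 0.29 and a 95% interval of -0.83 to 0.52 (limma, adjusted p of 1.0; exact permutation test, two-sided p of 0.7). *Sox17* was the only tested gene of the 5 with a lower mean in *Id2*-/-. By number the differences were 0.54, -0.50 and -0.49, so the pair numbered 1 ran against the other two. With both arrays numbered 1 left out, the difference was -0.50 with an unadjusted p of 0.0214 and an adjusted p of 0.284 in limma; 12.9% of all probes had an unadjusted p under 0.05 in that fit.

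*Sox18*, a factor of blood and lymphatic endothelium, read 3.28, 2.22 and 1.68 in *Id2*-/- midgut, against 1.99, 2.03 and 2.08 in *Id2*+/+ midgut. The *Id2*+/+ values lay close together and inside the range of the *Id2*-/- values, of which number 1 stood highest. The means were 2.39 ± 0.81 and 2.03 ± 0.044 (SD, n = 3 each). The difference was 0.36 with a standard error of 0.41 and a 95% interval of -0.60 to 1.32 (limma, adjusted p of 1.0; exact permutation test, two-sided p of 0.7). It rested on 1 array: leaving out *Id2*-/- array 1 gave -0.084. The differences by number were 1.29, 0.18 and -0.40. The profiles nearest to *Sox18* were those of *Adgre5*, an adhesion receptor of leukocytes (0.12), and *Acsl4*, a fatty acid activating enzyme (0.15).

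Endothelial genes were read beside the group F genes. Of 15 genes 14 had a probe and 10 were tested; all 10 were higher in the mean in *Id2*-/- midgut, with a median of 0.42, and the number called was 0 in both fits. Over all tested probes 60.4% had a mean difference above 0. Other lists had the same sign: 5 of 5 tested erythroid genes were higher in the mean, with a median of 0.72 (0.78, 0.53 and 0.57 by number), and 6 of 6 tested cell cycle genes, with a median of 0.17 (0.65, -0.021 and -0.19), with 0 called in either fit. The endothelial median by number was 1.07, 0.30 and -0.013, in the same order as for *Sox18*. That order is not particular to endothelium. The median of all tested probes had it (0.35, -0.038 and -0.19), and so did the pan-epithelial median (0.43, -0.48 and -0.82). The summed level of the endothelial list was 148 to 195 on the *Id2*-/- arrays and 95.3 to 159 on the *Id2*+/+ arrays, and *Erg* and *Notch4* were above background on 0 of 6 arrays. *Plvap*, which encodes the diaphragm protein of fenestrated vessels, differed by 0.51, and *Robo4*, a guidance receptor of vessels, by 0.64. The part of these lists in the *Sox18* values was not tested. Of 6 lymphatic genes, 3 were tested (*Lyve1*, *Pdpn* and *Ccl21a*) with a median difference of -0.097, and *Prox1*, the defining lymphatic factor that *Sox18* is known to activate, was above background on 0 of 6 arrays, as were *Flt4* and *Reln*.

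**Figure D4:**
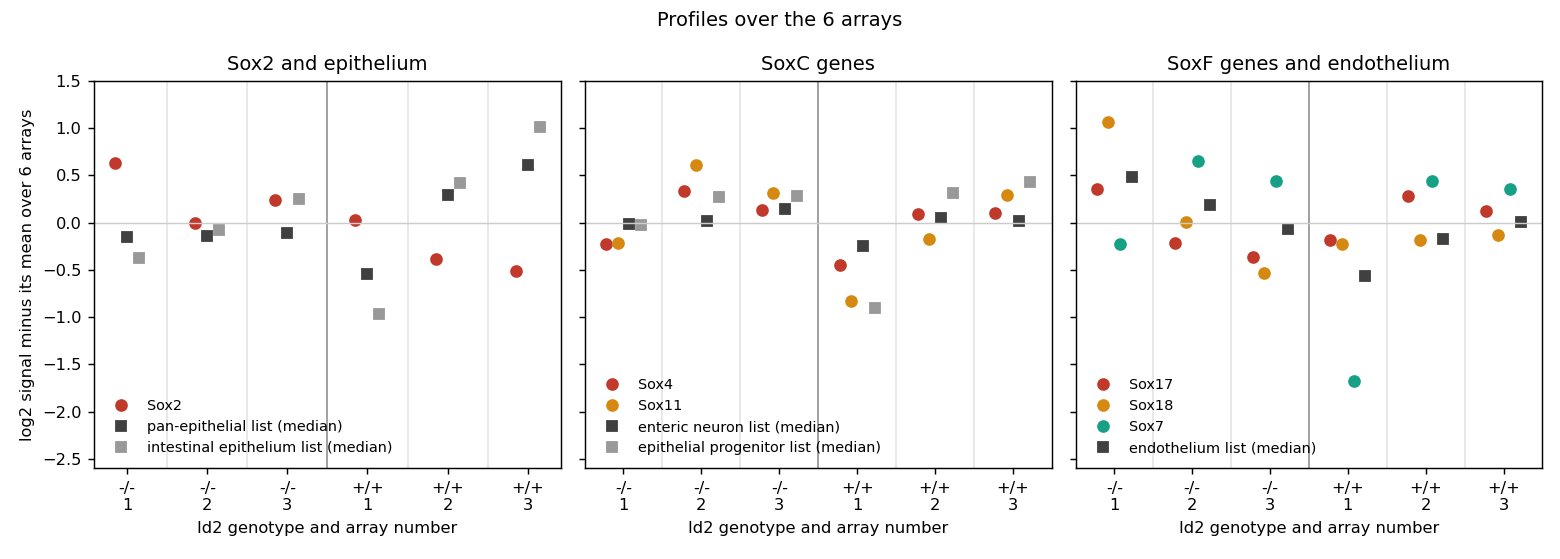
Log2 signal minus its mean over the 6 arrays (y axis) for Sox genes (circles) and for the median of marker lists (squares), on the *Id2*-/- arrays numbered 1 to 3, at left, and the *Id2*+/+ arrays numbered 1 to 3, at right of each panel. On *Id2*-/- array 1 *Sox18* stands at 1.07, *Sox17* at 0.36, *Sox7* at -0.22 and the endothelial list at 0.49. *Sox2* and the pan-epithelial list lie on opposite sides of 0 on every array but *Id2*-/- array 2, with *Sox2* close to 0 (0.027) on *Id2*+/+ array 1.

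The Sox family beyond these genes was represented by 9 of 11 further symbols, of which 3 were tested. *Sox7*, the remaining group F gene, read 5.15, 6.03 and 5.82 in *Id2*-/- midgut, against 3.70, 5.82 and 5.73 in *Id2*+/+ midgut. Its lowest value by far was the *Id2*+/+ array numbered 1, and the differences by number were 1.45, 0.21 and 0.092. The mean difference of 0.59 did not pass the test (limma, adjusted p of 1.0). *Sox12*, the group C relative of *Sox4* and *Sox11*, differed by -0.025, and *Sox13*, a group D gene, by -0.17. *Sox1*, *Sox6*, *Sox15* and *Sox30* were above background on 0 of 6 arrays, and *Sox3* and *Sox8*, relatives of *Sox2* and *Sox9*, on 1 *Id2*-/- array and 1 *Id2*+/+ array each.

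Over the 5 tested genes the median difference was 0.36, against 0.043 over all tested probes, and 4 of the 5 were higher in the mean in *Id2*-/- midgut, where 60.4% of all probes were. The 3 pairs agreed on a positive sign for 3 of the 5, *Sox2*, *Sox4* and *Sox11*, where 11.8% of all probes had that. Relative to the median probe of each pair, *Sox4* was negative for number 1, at -0.12. In 0 of the 5 were all 3 *Id2*-/- values above or below all 3 *Id2*+/+ values, as they were for 4.02% of all probes (2.73% above and 1.29% below). The profiles most similar to that of *Sox2* over the 6 arrays were those of *Hrob*, a gene of DNA repair (0.094), and *Cysltr1*, a leukotriene receptor gene (0.13), by root mean square difference, with the median gene at 0.51.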

How the data were processed

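Distal midgut RNA of E13.5 embryos was measured on 6 arrays, 3 per genotype. Per the file headers each array gives an intensity, a signal-to-noise score, a quality flag and a normalized value, the ratio that the authors made by dividing the signal by the median of the array. The deposited table of the series holds the same ratio (largest difference 0). The methods leave out spots by flag and under a signal-to-noise of 3; a flag of 5000 or more was taken here as bad. No Sox probe carried one.

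Log2 of the ratio entered limma (version 3.58.1, R version 4.3.3), two-sided, with Benjamini-Hochberg adjustment over all 12741 tested probes at 0.05, and the script was tested on simulated data. The genes described are the 8 members; from each marker list the whole-list counts and at most 3 tested members with the smallest p; and the nearest profiles of members whose SD over the 6 arrays was above the median of all probes. Where a count of 5 or fewer is given, the genes in it are also named, and these were chosen after their values were seen. Members and lists were chosen with earlier results of these data known. Names follow the platform annotation, updated through RefSeq; 14411 probes have 1 gene symbol, 247 several and 18354 none. After the genotype mean was removed, arrays that share a number correlated at 0.838, 0.644 and 0.579, and the numbers were taken as pairs for this reason alone. With the replicate block limma's prior degrees of freedom were infinite, so all probes shared the same standard error in that fit. Alternatives were quantile normalization, other background limits, an offset, the block and leaving out arrays. The number of arrays limits the precision. Figures were drawn with matplotlib 3.10.9.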

Additional observations from a re-analysis of the deposited data

How the results depend on the processing

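The count of called probes was 0 in limma without the block and 278 with the replicate block, and it was 0 again with the block and either quantile normalization or scaling to the median of the tested probes (this scaling was chosen after seeing the data); leaving out each array in turn gave 0 each time. The count of Sox genes called was 0 under every alternative run. The difference of *Sox18* was -0.084 without the *Id2*-/- array numbered 1 and -0.11 without both arrays numbered 1, also an alternative chosen after seeing the data. The difference of *Sox4* was -0.018 without the *Id2*+/+ array numbered 1. Leaving out each array in turn gave 0.41 to 0.74 for *Sox2*, 0.74 to 2.10 for *Sox21*, -0.018 to 0.32 for *Sox4*, 0.18 to 0.74 for *Sox11*, -1.08 to 0.46 for *Sox9*, -0.37 to -0.0059 for *Sox17* and -0.084 to 0.71 for *Sox18*. Apart from leaving out arrays, every alternative run kept the sign of each of the 7 differences. Among the 5 Sox genes of the main fit, the smallest adjusted p under any alternative was 0.268 for *Sox2*, in limma without both arrays numbered 1. *Sox21* entered that fit only through the 2 *Id2*-/- arrays on which it was above background, so its p there is not given. Low signal over background limits *Sox21* and *Sox9*. By the methods' t-test on the same values, 242 probes were under the threshold before Benjamini-Hochberg adjustment and 0 after it, with 0 Sox genes in either count. Another probe per gene was not run, since each Sox gene has 1 probe.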
